A study of Mus musculus with 6 samples.

Results

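The genes described here encode the integrin and laminin chains, chosen by gene symbol alone. The rule took every symbol of the form Itga followed by a number or one of the letter names (v, x, l, m, d, e), every Itgb with 1 digit, and every Lama, Lamb or Lamc with 1 digit. It found 37 of the 20325 genes in the files: 18 integrin alpha chains, 8 integrin beta chains and 11 laminin chains. The libraries came from mouse neural stem cells, cultured from mice of a mixed 129/Black 6 strain at postnatal day 4, plated on gelatin and driven towards pluripotency with doxycycline up to day 7. The mice carried 2 copies of a doxycycline-inducible cassette for Oct4, Sox2, c-Myc and Klf4 in the ColA1 locus and 1 copy of the transactivator rtTA in Rosa26, so the cells of both groups held and induced the same factors. Cells were fixed, permeabilised, stained for both proteins and sorted into a Nanog+E-cadherin+ population (3 libraries) and a Nanog+E-cadherin- population (3 libraries), and the crosslinks were reversed before RNA isolation. No unsorted, uninduced or Nanog-negative library was analysed here. Whether the replicates came from different cultures or mice is not in the labels. Y-linked expression, given under the processing, was near 0 only in the libraries numbered 2, so the sex of the cells differed between replicate numbers. The p-values here refer only to the spread among these libraries.

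Integrins are cell-surface receptors made of 1 alpha and 1 beta chain, which bind matrix proteins or cell-surface ligands outside the cell and connect to the cytoskeleton inside it. The alpha chain largely sets which ligand is bound, and the beta chain recruits the intracellular adaptors. Laminins are secreted trimers of 1 alpha, 1 beta and 1 gamma chain that build basement membranes and are themselves bound by some of the integrins. Neural stem cells in the brain contact laminin through such receptors, and epithelia rest on a laminin-containing basement membrane.

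The libraries held 20934553, 12345327 and 19241426 expected counts in Nanog+E-cadherin+ replicates 1 to 3, against 39630916, 10825811 and 8851110 in Nanog+E-cadherin- replicates 1 to 3. Cdh1, which encodes E-cadherin, had 104, 143 and 139 CPM (expected counts scaled by library size with TMM factors) in Nanog+E-cadherin+ libraries, against 16.5, 20.3 and 15.4 CPM in Nanog+E-cadherin- libraries, so the labels and the sort did not conflict. The populations overlapped for Nanog, with 118, 131 and 101 CPM in Nanog+E-cadherin+ libraries, against 135, 107 and 78.6 CPM in Nanog+E-cadherin- libraries. Reads on 1447 olfactory and vomeronasal receptor genes, which these cells are not known to use and which are taken here as a measure of background sequence, summed to 36.7, 144 and 108 CPM in Nanog+E-cadherin+ replicates 1 to 3. In Nanog+E-cadherin- replicates 1 to 3 they summed to 40.2, 1770 and 1130 CPM, so replicates 2 and 3 of that population stood apart. Libraries of equal replicate number deviated together, and the fit with the replicate number as a block is therefore given beside the fit with the group alone. In bulk libraries, fewer cells of a type and less RNA per cell cannot be told apart.

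Most of the message for these families came from a small core of chains. Of the 37 genes, 13 averaged at least 10 TPM (the deposited level, which corrects for transcript length) over the 6 libraries, 10 averaged from 1 to 10 TPM, and 14 averaged under 1 TPM. Itgb5 was the most abundant member, with 216 ± 77.8 TPM in Nanog+E-cadherin+ cells and 251 ± 79.3 TPM in Nanog+E-cadherin- cells (SD, n = 3 each). Lamc1 averaged 155 ± 93.6 TPM in Nanog+E-cadherin+ cells and 140 ± 74.7 TPM in Nanog+E-cadherin- cells.

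**Figure D1:**
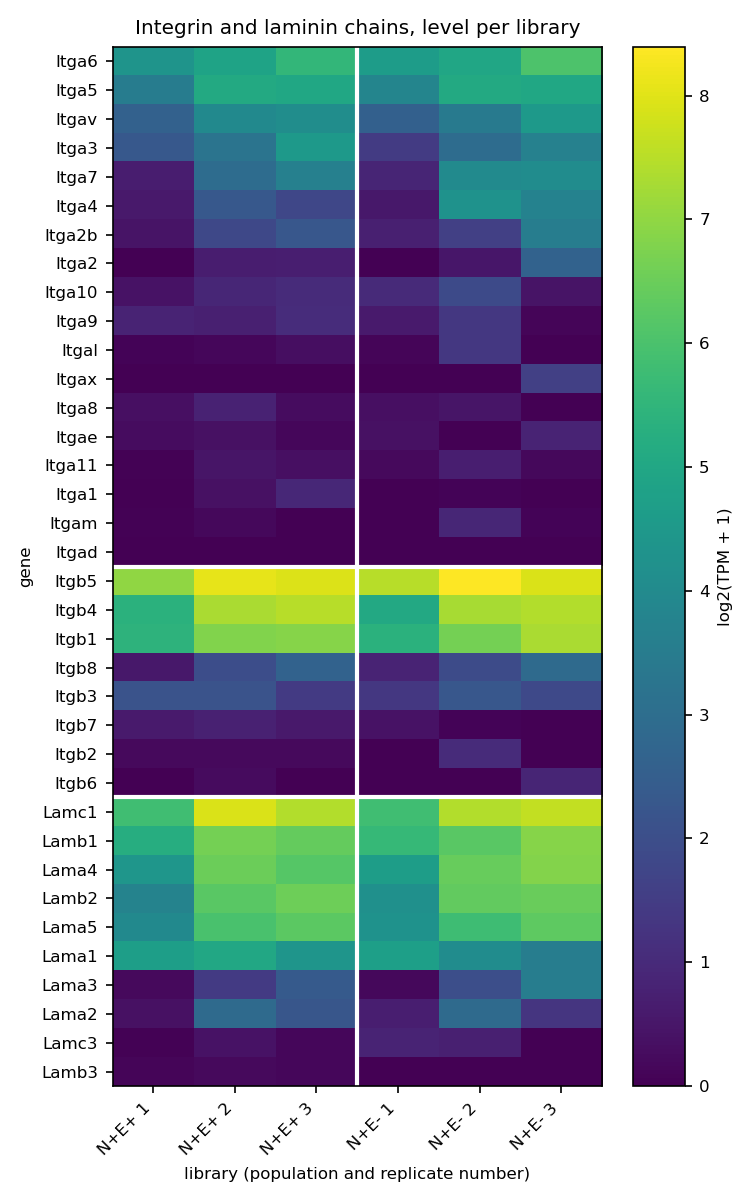
Level of 36 chains in each library as log2(TPM + 1), with Nanog+E-cadherin+ replicates 1 to 3 left of Nanog+E-cadherin- replicates 1 to 3 (N+E+ and N+E-) and families split by white lines. The columns numbered 1 are darker than the columns numbered 2 and 3 in both populations for most laminin rows, while Lama1 is not.

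Between the sorted populations, no chain passed the test. Of the 37 members, 28 had enough counts to be tested, and the other 9 lay below the filter on low counts. In edgeR's quasi-likelihood test with the group alone, 0 of the 28 passed an adjusted p of 0.05, where 0% of the 13460 genes tested passed, and 0 of the 28 had an unadjusted p under 0.05, against 2.67% of all genes. With the replicate number as a block, 0 of the 28 passed, against 0.305% of all genes. Unadjusted p under 0.05 in the blocked fit was reached by 2 members fitted higher in Nanog+E-cadherin+ cells, Itga3 and Lama1 (5.51% of all genes), and by 1 fitted lower, Itga4 (5.19% of all genes). DESeq2's Wald test called 0 members with the group alone, against 0.0712% of the genes it was given. With the block it called 2, Itga4 lower and Lama1 higher, against 1.58% of all genes with a count and 2.01% of those it gave an adjusted p. Each of these is described below with its family.

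For the abundant chains the intervals were narrow when equal replicate numbers were treated as pairs. In the blocked fit, 12 of the 28 tested members, all with a mean of at least 10 TPM, had a 95% interval of the log2 fold change inside -1 to 1, and their bounds ran from -0.55 to 0.64. The other tested members were less well measured: 9 of them had under 500 expected counts over all 6 libraries together. The median log2 fold change over the tested integrin alpha chains was -0.33 with the group alone and -0.39 with the block. It was 0.09 and 0.13 for the beta chains, -0.01 and 0.00 for the laminin chains, and -0.01 and 0.02 for all genes tested. These medians are no test, and the alpha value rests on several chains of very low count.

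**Figure D2:**
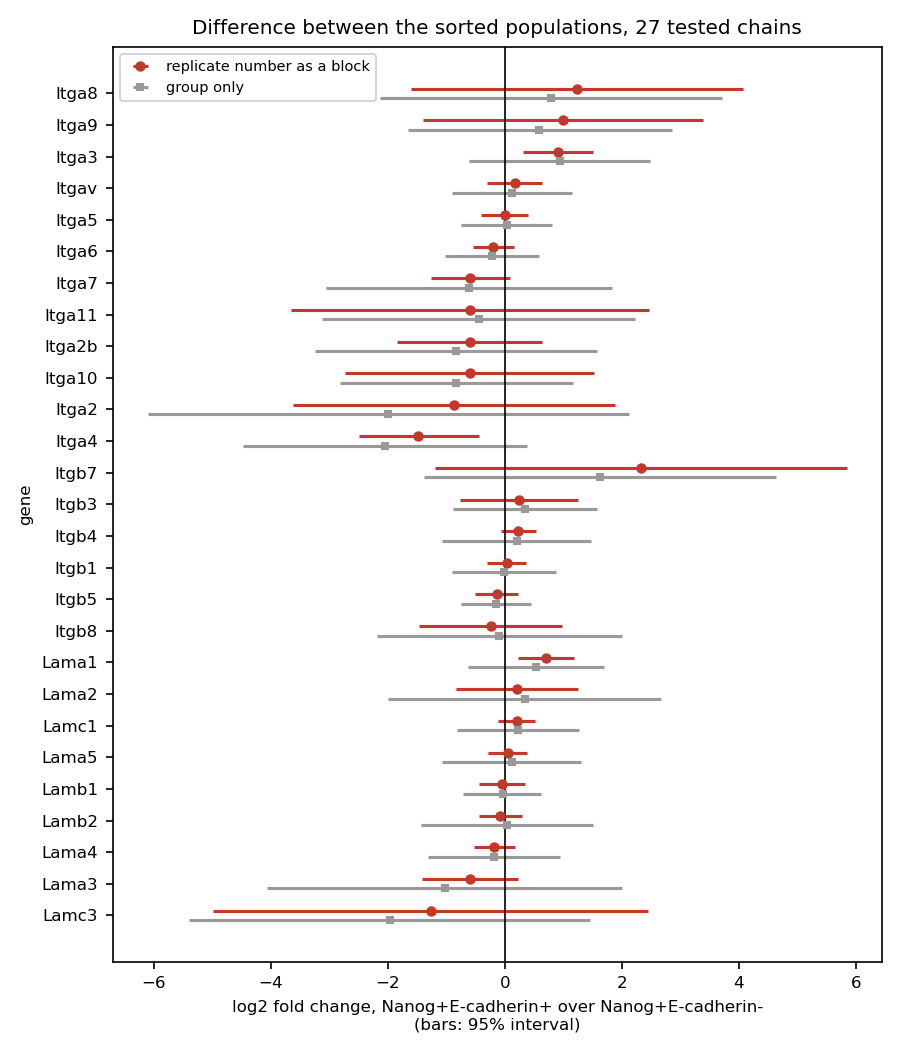
Log2 fold change of Nanog+E-cadherin+ over Nanog+E-cadherin- for 27 tested chains, as points with 95% intervals, from the fit with the replicate number as a block (red circles) and with the group alone (grey squares). With the block, the intervals of Itga3 (0.31 to 1.51), Lama1 (0.23 to 1.19) and Itga4 (-2.50 to -0.45) lie off 0, and none of them passed after adjustment over all genes.

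Among the laminin-binding alpha chains, Itga3 lay higher in Nanog+E-cadherin+ cells within each replicate number. Itga3 pairs with Itgb1 and is a laminin receptor of epithelial cells. It had 14.9, 19.4 and 55.9 CPM in Nanog+E-cadherin+ replicates 1 to 3, against 6.13, 15.5 and 25.7 CPM in Nanog+E-cadherin- replicates 1 to 3. The populations overlapped, since Nanog+E-cadherin- replicate 3 exceeded Nanog+E-cadherin+ replicates 1 and 2, while the log2 ratios within the numbers 1, 2 and 3 were 1.21, 0.31 and 1.11. Its log2 fold change was 0.94 ± 0.66 (SE) with the group alone (adjusted p = 1 in edgeR's test) and 0.91 ± 0.26 with the block (unadjusted p = 0.00756, adjusted p = 0.271). Fitted on the group alone, it became 0.16 when Nanog+E-cadherin+ replicate 3 was left out. Leaving out a Nanog+E-cadherin- library gave 0.56 for replicate 1 and 1.49 for replicate 3. DESeq2 with the block gave an adjusted p of 0.128, and over the alternatives tried the adjusted p lay between 0.0791 and 1. All 13 genes of the epithelial marker list summed to 321, 168 and 185 CPM in Nanog+E-cadherin+ libraries, against 190, 190 and 128 CPM in Nanog+E-cadherin- libraries. In number 2 the sum was lower in Nanog+E-cadherin+ cells, where Itga3 was higher. Of the 13, 8 lay higher and 1 lower with no overlap between populations, against 6.99% of all genes in either direction, and their median blocked log2 fold change was 1.14. The part of these markers in the result was not tested.

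Itga6, the laminin receptor chain long used to mark neural and other stem cells, was the most abundant alpha chain by mean TPM. It stood at 19.39, 28.47 and 45.87 TPM in Nanog+E-cadherin+ replicates 1 to 3, against 23.71, 30.44 and 65.17 TPM in Nanog+E-cadherin- replicates 1 to 3. Each Nanog+E-cadherin+ library was below the Nanog+E-cadherin- library of its number, but the populations overlapped, and the blocked log2 fold change was -0.20 ± 0.16 (adjusted p = 0.682). Itga7, a laminin receptor chain of muscle that is also made by neural cells, had 1.87, 13.0 and 24.0 CPM in Nanog+E-cadherin+ cells, against 2.36, 28.7 and 28.7 CPM in Nanog+E-cadherin- cells. It too was lower within each number, with a blocked log2 fold change of -0.59 ± 0.29 (adjusted p = 0.522). Over all 28 tested members, 6 were higher in all 3 pairs (Itga3, Itga8, Itgb4, Itgb7, Lama1 and Lamc1) and 2 lower in all 3 pairs (Itga6 and Itga7). Those are 21.4% and 7.14% of the members, against 18.9% and 17.3% of all genes tested.

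The alpha chains that bind the RGD motif of fibronectin and vitronectin did not separate the populations. Itga5, the main fibronectin receptor chain, had 35.7, 67.8 and 70.4 CPM in Nanog+E-cadherin+ replicates 1 to 3, against 41.0, 69.3 and 60.7 CPM in Nanog+E-cadherin- replicates 1 to 3. Its blocked log2 fold change was 0.00 ± 0.18, with a 95% interval from -0.41 to 0.40. Itgav, which pairs with several beta chains to bind vitronectin and latent TGF-beta, had 28.1, 49.3 and 59.9 CPM in Nanog+E-cadherin+ cells, against 25.4, 33.2 and 68.0 CPM in Nanog+E-cadherin- cells. The blocked log2 fold change of Itgav was 0.17 ± 0.21 (adjusted p = 0.789). Itga8, a receptor chain for nephronectin in the developing kidney, was rare, at 0.601 to 2.04 CPM in Nanog+E-cadherin+ cells and 0 to 1.15 CPM in Nanog+E-cadherin- cells. Itga2b, the fibrinogen receptor chain of platelets and their precursors, had 0.936, 4.09 and 6.86 CPM in Nanog+E-cadherin+ cells, against 1.69, 3.20 and 16.5 CPM in Nanog+E-cadherin- cells. One library, Nanog+E-cadherin- replicate 3, was thus the highest for Itga2b. The 5 megakaryocyte markers summed to 1.10, 4.01 and 0.901 CPM in Nanog+E-cadherin+ cells, against 1.46, 7.71 and 1.68 CPM in Nanog+E-cadherin- cells. Of these markers, Gp9, Pf4 and Ppbp were at 0 in that library.

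The collagen-binding alpha chains were all scarce. Itga1 lay below the filter, at no more than 2.75 CPM in any library, and none of Itga2, Itga10 and Itga11 averaged over 2 TPM in either population. Itga2, a collagen receptor chain of epithelia and platelets, reached 9.87 CPM in Nanog+E-cadherin- replicate 3 and stood at 0.0281 to 1.40 CPM in the 5 others. Itga10 and Itga11, known from cartilage and fibroblasts, had blocked log2 fold changes of -0.60 ± 0.94 and -0.59 ± 1.34. Intervals of that width do not bound the difference usefully.

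Itga4, which pairs with Itgb1 or Itgb7 to bind fibronectin and the adhesion molecule VCAM1, had the lowest blocked p of the chains fitted lower in Nanog+E-cadherin+ cells. It stood at 3.85, 18.4 and 12.6 CPM in Nanog+E-cadherin+ replicates 1 to 3, against 3.29, 87.2 and 54.1 CPM in Nanog+E-cadherin- replicates 1 to 3. The 2 high values were Nanog+E-cadherin- replicates 2 and 3, and in replicate 1 both populations were low and nearly level (log2 ratios 0.20, -2.22 and -2.06 for numbers 1, 2 and 3). Its log2 fold change was -2.05 ± 1.04 with the group alone (adjusted p = 1 in edgeR's test) and -1.48 ± 0.45 with the block (unadjusted p = 0.0100, adjusted p = 0.290). DESeq2 with the block gave -1.42 ± 0.41 (adjusted p = 0.0310). The blocked edgeR value was -2.16 when both libraries numbered 1 were left out (adjusted p = 1.52e-06), -0.99 when those numbered 2 were (adjusted p = 0.442) and -1.17 when those numbered 3 were (adjusted p = 0.147). Fitted on the group alone, it became -1.29 when Nanog+E-cadherin- replicate 2 was left out, and over all alternatives the adjusted p lay between 1.52e-06 and 1. The same 2 libraries were those with the highest background sequence, and the expected counts of Itga4 were fractional in all 6 libraries, as they were for Itga6, Itgb1, Itgb4, Lama5, Lamb2 and Lamc1. With neither of them in the fit the value was 1.81 (adjusted p = 0.989), a comparison of 3 libraries with Nanog+E-cadherin- replicate 1 alone. The part of the background sequence in the Itga4 values was not tested. Itga9, which binds tenascin and other matrix proteins, had 2.19 to 3.90 CPM in Nanog+E-cadherin+ cells and 0.210 to 3.81 CPM in Nanog+E-cadherin- cells.

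**Figure D3:**
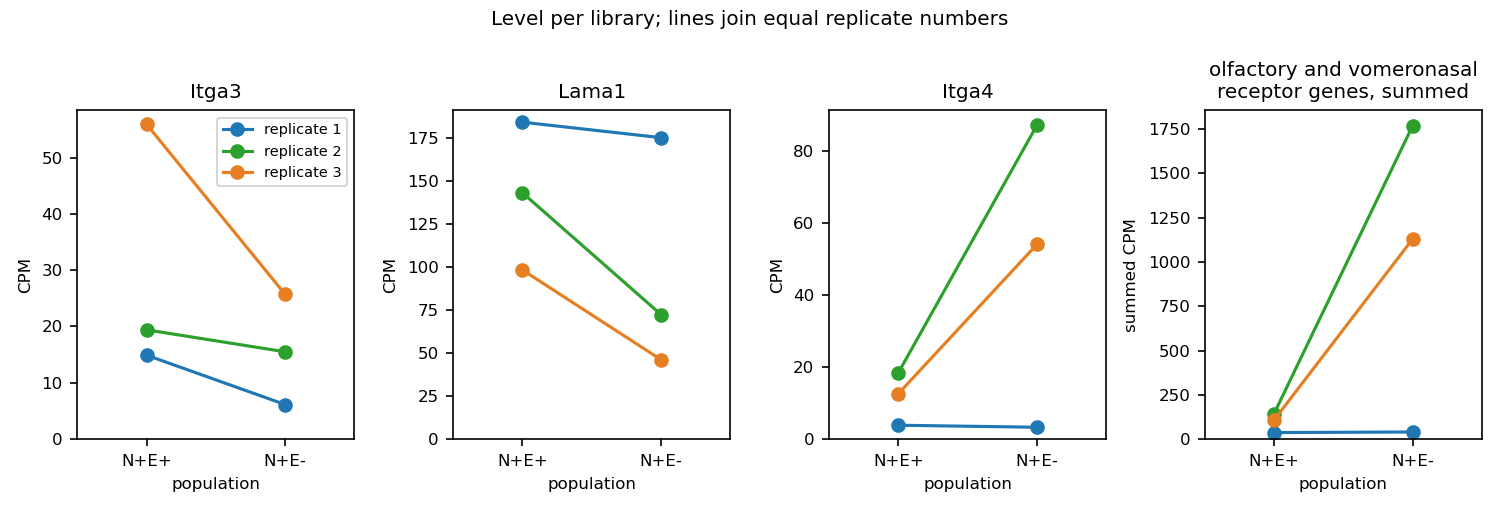
CPM of Itga3, Lama1 and Itga4 and summed CPM of the 1447 olfactory and vomeronasal receptor genes in each library, with Nanog+E-cadherin+ (N+E+) left of Nanog+E-cadherin- (N+E-) and lines joining libraries of equal replicate number. The lines of Itga3 and Lama1 all slope down to the right, and those of Itga4 for numbers 2 and 3 climb to 87.2 and 54.1 CPM alongside the receptor genes in the same libraries.

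The promoters of Itga3 and Itga4 are shown because these are the 2 chains of smallest blocked p that have one in the table used. Lama1 is not in that table. They come from RefSeq on GRCm38.p6, run from 250 bases before to 50 bases after the gene's start, and are written 5′ to 3′ on the gene's strand. Itga3 lies at chr11:95076665-95076964 on the - strand, and Itga4 at chr2:79255176-79255475 on the + strand. Capitals mark matches, on either strand, to ATGCAAAT (the octamer bound by Oct4), AACAAT (a SOX motif), CACCC (bound by Klf proteins), CACGTG (the Myc E-box), CAGGTG (the E2 box bound by Zeb and Snail proteins) or GGGCGG (the GC box of Sp and Klf proteins).
Itga3: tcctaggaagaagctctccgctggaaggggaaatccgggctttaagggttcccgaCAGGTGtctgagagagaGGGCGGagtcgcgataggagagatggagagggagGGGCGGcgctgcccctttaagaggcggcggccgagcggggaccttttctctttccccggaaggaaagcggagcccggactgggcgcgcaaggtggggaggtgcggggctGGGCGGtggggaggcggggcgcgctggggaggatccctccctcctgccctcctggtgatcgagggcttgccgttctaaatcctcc
Itga4: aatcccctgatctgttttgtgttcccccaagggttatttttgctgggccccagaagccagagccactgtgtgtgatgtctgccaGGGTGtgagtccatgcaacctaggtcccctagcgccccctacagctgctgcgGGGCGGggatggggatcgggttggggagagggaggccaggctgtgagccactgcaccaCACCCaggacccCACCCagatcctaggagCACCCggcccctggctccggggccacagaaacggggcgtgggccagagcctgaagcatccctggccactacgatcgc
Itga3 holds 1 E2 box and 3 GC boxes, and Itga4 holds 4 CACCC matches and 1 GC box. No matches of different motifs shared bases in either sequence. Of the 32851 promoters in the table, 1.74% hold the octamer, 10.7% the SOX motif, 57.5% CACCC, 7.15% the Myc E-box, 20.2% the E2 box and 35.7% the GC box. The table holds promoters for 23 of the 37 members. The motifs were counted in 26 promoters of members, with 1 chromosome not included. Of these 26, the octamer is in 0, the SOX motif in 3, CACCC in 17, the Myc E-box in 0, the E2 box in 8 and the GC box in 12. A match is a run of letters and not a binding site.

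The alpha chains of leukocyte integrins were near 0, as were most markers of those cells. Itgal, Itgam, Itgax, Itgad and Itgae, which pair with Itgb2 or Itgb7 on blood cells, were all below the filter, and Itgad had 0 CPM in every library. The highest value among them was 3.57 CPM, for Itgax in Nanog+E-cadherin- replicate 3, with 0 CPM in the 5 others. The 10 leukocyte markers summed to 355 to 532 CPM in Nanog+E-cadherin+ cells and 373 to 587 CPM in Nanog+E-cadherin- cells, nearly all of it from Laptm5, a lysosomal membrane protein gene. The 8 other than Laptm5 and Cd68, a split made after their values were seen, summed to 0.771, 2.19 and 0.750 CPM in Nanog+E-cadherin+ cells, against 0.141, 0.865 and 3.78 CPM in Nanog+E-cadherin- cells. Csf1r, one of these 8, had 3.57 CPM in Nanog+E-cadherin- replicate 3, the library and level of the highest Itgax value, and at most 0.25 CPM in the 5 others. The defining gene Ptprc was at 0 in Nanog+E-cadherin+ replicate 1 and in every Nanog+E-cadherin- library, and Tyrobp was at 0 throughout.

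The beta chains were led by Itgb5, Itgb4 and Itgb1, and none separated the populations. Itgb5, a partner of Itgav for vitronectin, had 320, 418 and 419 CPM in Nanog+E-cadherin+ replicates 1 to 3, against 418, 518 and 349 CPM in Nanog+E-cadherin- replicates 1 to 3. Its blocked log2 fold change was -0.14 ± 0.16 (adjusted p = 0.771). Itgb4, the partner of Itga6 in the hemidesmosomes that anchor epithelia to laminin, had 187, 458 and 560 CPM in Nanog+E-cadherin+ cells, against 144, 448 and 460 CPM in Nanog+E-cadherin- cells. Each pair had the Nanog+E-cadherin+ library higher, with log2 ratios of 0.38, 0.03 and 0.28, and the blocked log2 fold change of Itgb4 was 0.23 ± 0.14 (adjusted p = 0.581). Itgb1, the partner of most alpha chains, had 136, 217 and 253 CPM in Nanog+E-cadherin+ cells, against 120, 197 and 297 CPM in Nanog+E-cadherin- cells. The blocked log2 fold change of Itgb1 was 0.03 ± 0.15, with a 95% interval from -0.30 to 0.36.

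The other beta chains were low. Itgb3, the partner of Itga2b and Itgav, averaged 2.87 TPM in Nanog+E-cadherin+ cells and 2.66 TPM in Nanog+E-cadherin- cells. Itgb8, which pairs with Itgav to activate latent TGF-beta in the developing brain, averaged 2.89 TPM in Nanog+E-cadherin+ cells and 3.36 TPM in Nanog+E-cadherin- cells. Itgb6, the epithelial partner of Itgav, and Itgb2, the leukocyte chain, were below the filter. Itgb7, another leukocyte chain, was the only tested member whose libraries did not overlap, at 1.05, 0.908 and 0.651 CPM in Nanog+E-cadherin+ cells, against 0.647, 0.0866 and 0 CPM in Nanog+E-cadherin- cells. That is 1 of 28, against 6.99% of all genes tested, at 68 counts over all libraries, and the overlap depended on the scaling.

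Lama1 lay higher in Nanog+E-cadherin+ cells in all 3 pairs. It encodes the laminin alpha chain of the earliest embryonic basement membranes, which embryonic stem cells and the embryo's first epithelia make. Lama1 had 184, 143 and 98.2 CPM in Nanog+E-cadherin+ replicates 1 to 3, against 175, 72.3 and 46.1 CPM in Nanog+E-cadherin- replicates 1 to 3. The populations overlapped, because Nanog+E-cadherin- replicate 1 was the second highest library, and the log2 ratios within numbers 1, 2 and 3 were 0.07, 0.98 and 1.08. Its log2 fold change was 0.53 ± 0.50 with the group alone (adjusted p = 1 in edgeR's test) and 0.71 ± 0.21 with the block (unadjusted p = 0.00897, adjusted p = 0.284). DESeq2 with the block gave 0.73 ± 0.22 (adjusted p = 0.0415). The blocked edgeR value was 1.05 when both libraries numbered 1 were left out (adjusted p = 0.0245), 0.57 when those numbered 2 were (adjusted p = 0.442) and 0.52 when those numbered 3 were (adjusted p = 0.143). Fitted on the group alone, it became 0.29 when Nanog+E-cadherin+ replicate 1 was left out. Leaving out a Nanog+E-cadherin- library gave 1.27 for replicate 1, 0.35 for replicate 2 and 0.19 for replicate 3, and over all alternatives the adjusted p lay between 0.0245 and 1. Without both libraries of highest background it was -0.31 (adjusted p = 0.989), in a fit where only Nanog+E-cadherin- replicate 1 stood for its population. Pluripotency markers, 9 genes, summed to 884, 494 and 461 CPM in Nanog+E-cadherin+ cells, against 480, 432 and 406 CPM in Nanog+E-cadherin- cells. Most of that sum was Pou5f1, which encodes Oct4, a factor of the cassette, at 548, 283 and 293 CPM against 277, 301 and 286 CPM. The 7 tested genes of the list, Nanog among them, were all fitted higher in the blocked fit, as were 6987 of all 13460 genes tested. The median blocked log2 fold change of the 7 was 0.80, against 0.02 for all genes tested. Nanog was at 0.15 ± 0.16 and Pou5f1 at 0.31 ± 0.21. Primitive endoderm markers, 7 genes of which 1 was at 0 in all libraries, summed to 9.97, 49.9 and 18.8 CPM in Nanog+E-cadherin+ cells, against 7.77, 25.6 and 11.3 CPM in Nanog+E-cadherin- cells. Nearly all of that sum was Dab2, at 9.25, 49.0 and 18.3 CPM against 7.40, 23.0 and 11.3 CPM. Sox17 was the gene at 0, Gata4, Gata6, Foxa2 and Afp did not exceed 0.378 CPM, and Sox7 did not exceed 2.60 CPM. The part of either list of markers in the Lama1 result was not tested.

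The other laminin alpha chains did not separate the populations. Lama4, known from vessel and mesenchymal basement membranes, was the most abundant by mean TPM, at 20.46, 90.26 and 71.18 TPM in Nanog+E-cadherin+ replicates 1 to 3, against 24.27, 85.32 and 112.86 TPM in Nanog+E-cadherin- replicates 1 to 3. Its blocked log2 fold change was -0.18 ± 0.15 (adjusted p = 0.705). Lama5, the broadly expressed epithelial chain, had 130, 336 and 451 CPM in Nanog+E-cadherin+ cells, against 153, 291 and 402 CPM in Nanog+E-cadherin- cells, with a blocked log2 fold change of 0.05 ± 0.14. Lama2, the chain of muscle and brain vessel basement membranes, had 2.20, 29.7 and 18.9 CPM in Nanog+E-cadherin+ cells, against 4.36, 29.6 and 6.30 CPM in Nanog+E-cadherin- cells. Lama3, the hemidesmosomal chain of skin, had 1.38, 8.17 and 22.6 CPM in Nanog+E-cadherin+ cells, against 0.957, 14.9 and 50.1 CPM in Nanog+E-cadherin- cells. Neither Lama2 nor Lama3 passed, with blocked log2 fold changes of 0.21 ± 0.46 and -0.60 ± 0.36.

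No beta or gamma laminin chain passed the test, and the populations overlapped for each abundant one. Lamb1, the beta chain of embryonic laminins, had 164, 272 and 250 CPM in Nanog+E-cadherin+ replicates 1 to 3, against 202, 205 and 301 CPM in Nanog+E-cadherin- replicates 1 to 3. Lamb2, its counterpart at the kidney filter and the neuromuscular junction, had 54.5, 198 and 270 CPM in Nanog+E-cadherin+ cells, against 71.0, 220 and 219 CPM in Nanog+E-cadherin- cells. Their blocked log2 fold changes were -0.05 ± 0.17 and -0.08 ± 0.17. Lamc1, the gamma chain found in most laminins, had 328, 869 and 671 CPM in Nanog+E-cadherin+ cells, against 305, 621 and 665 CPM in Nanog+E-cadherin- cells, with a blocked log2 fold change of 0.20 ± 0.14 (adjusted p = 0.648). Lamb3, a beta chain of skin laminin, lay below the filter with a highest value of 0.303 CPM. Lamc3, a gamma chain known from nerve and retina, had 164 counts over all libraries.

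The leading chain of each pool, by mean share of the summed TPM, was the same in both populations. Itga6 made up 35.6% of the summed alpha chain TPM in Nanog+E-cadherin+ cells and 36.9% in Nanog+E-cadherin- cells, and Itga5 made up 26.6% in Nanog+E-cadherin+ cells and 23.9% in Nanog+E-cadherin- cells. Itga3 averaged 11.2% in Nanog+E-cadherin+ cells and 5.26% in Nanog+E-cadherin- cells, while Itga4 averaged 2.28% in Nanog+E-cadherin+ cells and 7.59% in Nanog+E-cadherin- cells. Among beta chains Itgb5 held 51.3% in Nanog+E-cadherin+ cells and 55.9% in Nanog+E-cadherin- cells. Lamb1 held 59.7% of the laminin beta TPM in Nanog+E-cadherin+ cells and 59.4% in Nanog+E-cadherin- cells. Lamc1 held 93.8% of the gamma TPM in Nanog+E-cadherin+ cells and 92.0% in Nanog+E-cadherin- cells. The summed TPM of each pool was lower in number 1: the laminin alpha chains came to 60.5, 192 and 175 TPM in Nanog+E-cadherin+ cells, against 68.8, 164 and 215 TPM in Nanog+E-cadherin- cells. TPM set number 1 lower than CPM did for other genes too, so the size of this difference depends on the scale. Nanog, for one, had 118, 131 and 101 CPM but 115.44, 211.24 and 148.29 TPM in Nanog+E-cadherin+ replicates 1 to 3. Lama1 averaged 23.0% of the laminin alpha TPM in Nanog+E-cadherin+ cells and 17.2% in Nanog+E-cadherin- cells, and its share was highest in the 2 libraries numbered 1.

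**Figure D4:**
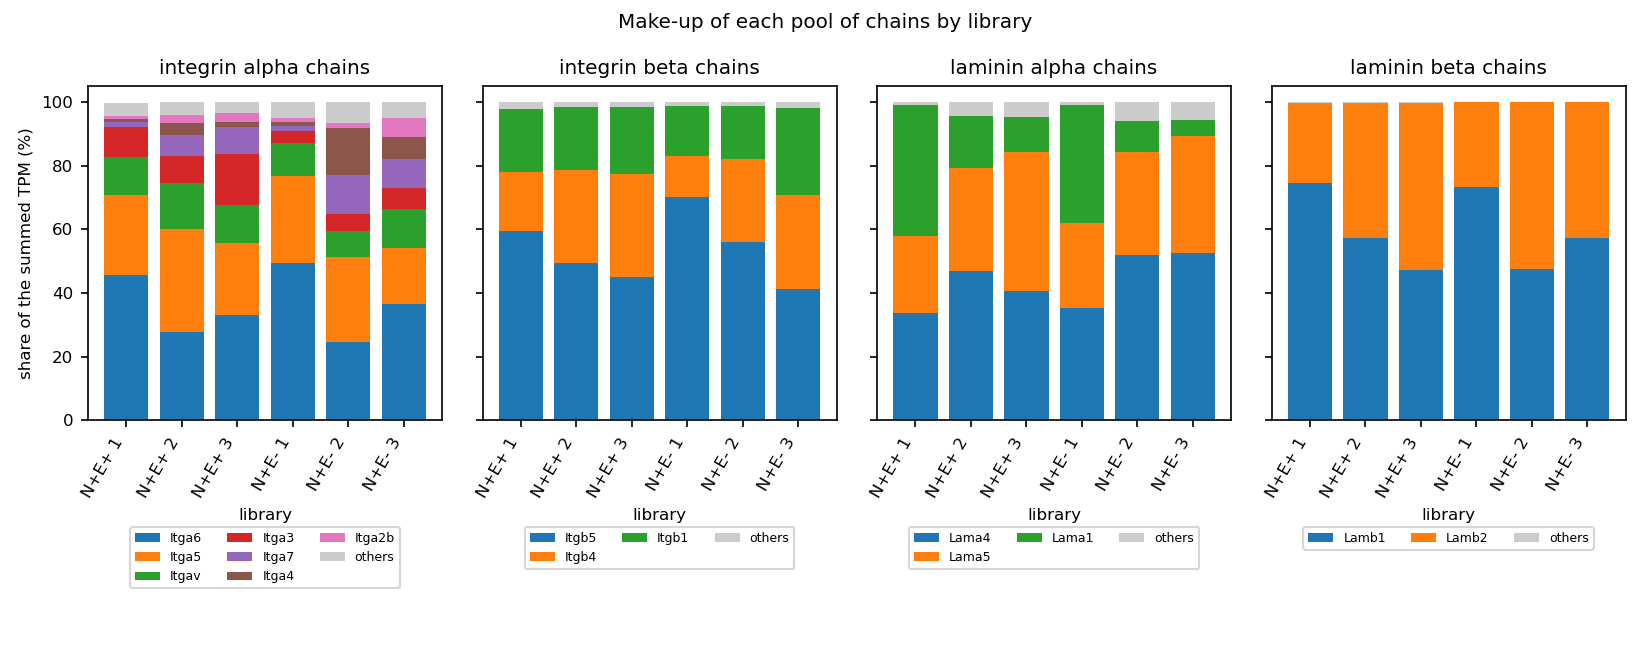
Share in percent of the summed TPM of integrin alpha, integrin beta, laminin alpha and laminin beta chains held by each chain, per library, with Nanog+E-cadherin+ (N+E+) left of Nanog+E-cadherin- (N+E-). Both libraries numbered 1 have more Lama1 and Lamb1, and Nanog+E-cadherin- replicates 2 and 3 have more Itga4 than the rest.

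The replicate number, and not the sorted population, separated most of these chains. Of the 28 tested members, 18 differed between replicate numbers at an adjusted p under 0.05 in the blocked edgeR fit, against 22.2% of all genes tested. They were 8 alpha chains (Itga2, Itga2b, Itga3, Itga4, Itga5, Itga6, Itga7 and Itgav), 2 beta chains (Itgb1 and Itgb4) and 8 laminin chains, Lama1, Lama5, Lamb2 and Lamc1 among them. This test and the description by number were added after the values were seen. Both libraries numbered 1 lay below the 4 others for 18 members, against 25.2% of all genes, and above them for 1, Lama1, against 24.6%. The median log2 ratio over the tested members was 1.01 for number 2 over number 1 and 1.18 for number 3 over number 1, where all genes had 0.05 and 0.00. With DESeq2 size factors 18 members passed, against 23.0% of all genes, and 17 had both libraries numbered 1 lowest, against 23.9%. With library totals 20 passed, against 23.8% of all genes, and 19 had them lowest, against 37.0%.

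Itgb4 had log2 ratios of 1.47 and 1.63 for numbers 2 and 3 over number 1 (adjusted p = 0.00109 in edgeR's test), Lamb2 1.74 and 1.97 (adjusted p = 0.00124), and Lama5 1.15 and 1.59 (adjusted p = 0.00183). Lama1 went the other way, with -0.85 and -1.43 (adjusted p = 0.0122). Itgb5, the most abundant chain, did not pass, with 0.34 and 0.07 (adjusted p = 0.371). The replicate number held a larger share of the variation than the population for 27 of the 28, Itgb7 being the exception. The 2 shares are not on an equal footing, since 3 numbers can take up more variation than 2 populations. The median share was 87.1% for the number and 3.95% for the population, against 64.8% and 9.20% over all genes tested.

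**Figure D5:**
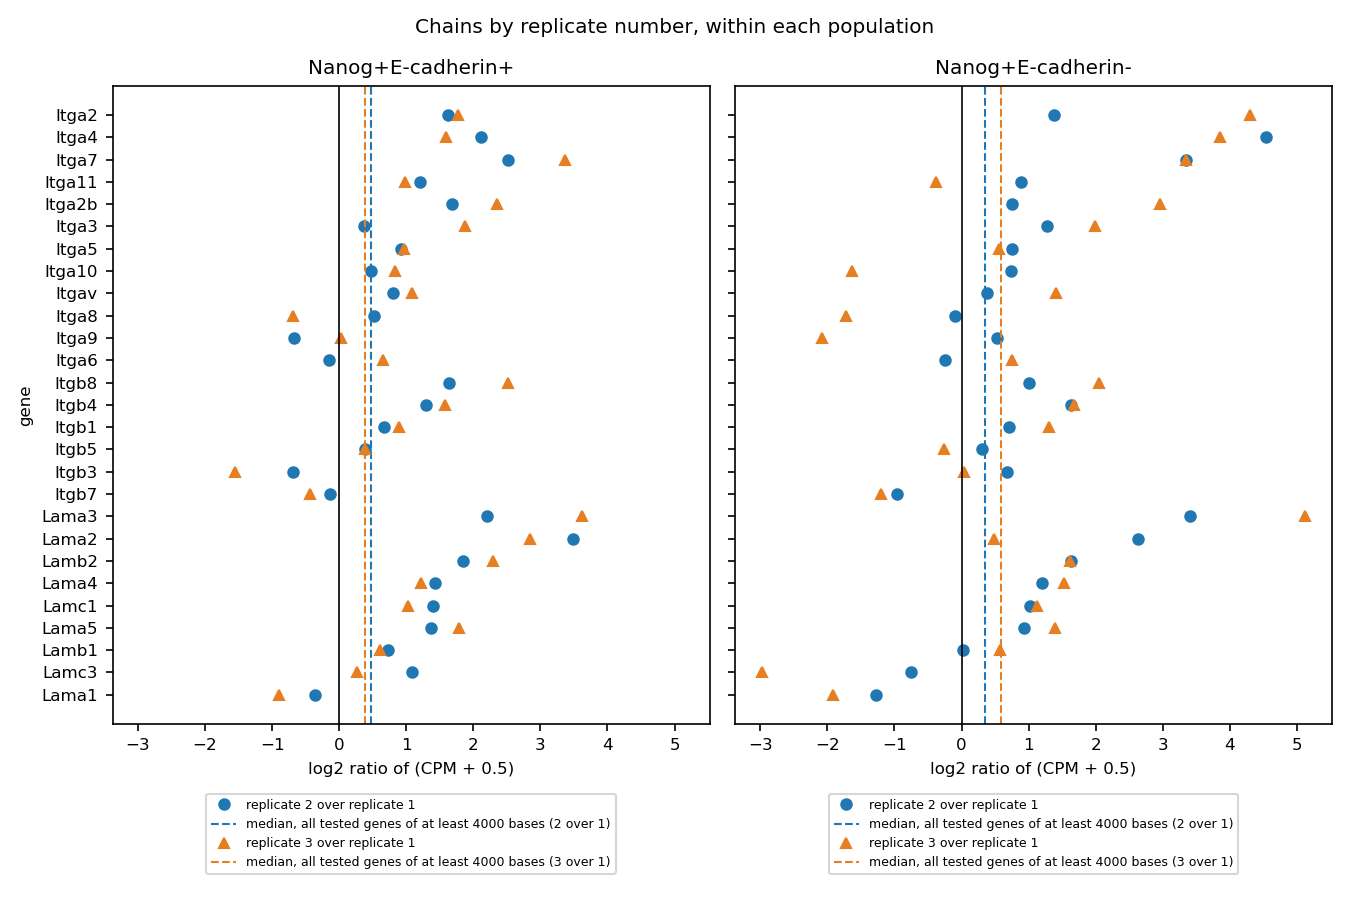
Log2 ratio of (CPM + 0.5) of replicate 2 (blue circles) and replicate 3 (orange triangles) over replicate 1 for 27 tested chains, in Nanog+E-cadherin+ (left) and Nanog+E-cadherin- (right) libraries, with dashed lines at the median of all tested genes of at least 4000 bases. Most laminin points lie right of the dashed lines in both panels, and those of Lama1 lie left of 0.

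Several measures moved with the replicate number beside these chains. The TPM-weighted mean transcript length was 1527, 2013 and 1896 bases in Nanog+E-cadherin+ replicates 1 to 3, against 1582, 2009 and 2112 bases in Nanog+E-cadherin- replicates 1 to 3. The tested members are long, with a median of 5701 bases. Among all 3809 tested genes of at least 4000 bases, a limit set after seeing the data, 45.8% had both libraries numbered 1 lowest and 23.3% passed the test for replicate number, with median log2 ratios of 0.42 and 0.50. Among the 24 tested members of that length, 66.7% had both libraries numbered 1 lowest and 70.8% passed, with median ratios of 1.01 and 1.18. The 8 mesenchymal markers summed to 454, 3580 and 1500 CPM in Nanog+E-cadherin+ cells, against 520, 2090 and 2270 CPM in Nanog+E-cadherin- cells. The 5 astrocyte markers summed to 248, 705 and 1260 CPM in Nanog+E-cadherin+ cells, against 156, 614 and 972 CPM in Nanog+E-cadherin- cells, and the 9 neural stem markers summed to 1580 to 4120 CPM in Nanog+E-cadherin+ cells and 1960 to 3770 CPM in Nanog+E-cadherin- cells. Most of the neural stem sum was Vim. Both libraries numbered 1 lay lowest for 6 of the 9 and highest for 1, against 25.2% and 24.6% of all genes. That 1 was Hes5, at 156, 16.4 and 2.90 CPM in Nanog+E-cadherin+ cells, against 292, 23.4 and 8.08 CPM in Nanog+E-cadherin- cells. The sum of the 5 neuron markers in the files was highest in number 1, with 850, 185 and 138 CPM in Nanog+E-cadherin+ cells, against 1100, 370 and 195 CPM in Nanog+E-cadherin- cells. Both libraries numbered 1 lay above the 4 others for 4 of the 5, against 24.6% of all genes, and Dcx was the exception. None of these lists has a gene at 0 in all libraries, and their part in the result was not tested.

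The promoters of Lama5 and Lamb2 are shown as laminin chains that moved together across replicate numbers. Lama5 lies at chr2:180225810-180226109 on the - strand and Lamb2 at chr9:108479612-108479911 on the + strand, from RefSeq on GRCm38.p6, with the same motifs in capitals.
Lama5: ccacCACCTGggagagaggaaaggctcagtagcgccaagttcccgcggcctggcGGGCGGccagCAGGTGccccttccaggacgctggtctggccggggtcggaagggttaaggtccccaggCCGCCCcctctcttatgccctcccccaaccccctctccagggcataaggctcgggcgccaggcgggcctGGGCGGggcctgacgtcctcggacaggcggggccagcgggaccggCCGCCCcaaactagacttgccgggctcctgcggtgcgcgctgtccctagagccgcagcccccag
Lamb2: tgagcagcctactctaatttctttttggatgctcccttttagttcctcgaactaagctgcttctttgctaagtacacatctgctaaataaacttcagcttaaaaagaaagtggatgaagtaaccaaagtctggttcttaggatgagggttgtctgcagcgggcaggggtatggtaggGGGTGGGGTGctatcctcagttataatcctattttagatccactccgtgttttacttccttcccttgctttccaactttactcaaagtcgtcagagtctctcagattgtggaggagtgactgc
Lama5 holds 2 E2 boxes and 4 GC boxes at 72.7% G and C, and Lamb2 holds 2 adjacent CACCC matches at 44.0% G and C. These windows, of genes that differed alike between the numbers, share none of the motifs searched.

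Other genes of integrin and laminin biology likewise gave 0 calls in edgeR in either fit. Of 38 tested integrin adaptors and cytoskeletal linkers, 2 were fitted higher and 0 lower at an unadjusted blocked p under 0.05, against 5.51% and 5.19% of all genes. Rsu1, which belongs to the integrin-linked kinase complex, had 60.1, 62.0 and 64.1 CPM in Nanog+E-cadherin+ cells, against 45.3, 52.5 and 39.0 CPM in Nanog+E-cadherin- cells. The blocked log2 fold change of Rsu1 was 0.45 ± 0.18 (adjusted p = 0.432). Of the 38, 2 lay higher and 1 lower in Nanog+E-cadherin+ cells with no overlap between populations, against 6.99% of all genes in either direction. Rsu1 was among the higher ones, and the lower one was Cd47, an integrin-associated membrane protein named after its values were seen, with 33.3, 26.9 and 29.3 CPM in Nanog+E-cadherin+ cells, against 37.3, 41.2 and 40.3 CPM in Nanog+E-cadherin- cells. Plaur, the urokinase receptor that binds beside integrins, and the focal adhesion linker Tns1 had blocked values of 1.70 ± 0.74 and 0.38 ± 0.18. Of 20 tested integrin ligands other than laminins, 2 were fitted higher and 2 lower at that p, against the same 5.51% and 5.19%. Postn, a matrix ligand of Itgav integrins, had 0.110, 0.832 and 2.10 CPM in Nanog+E-cadherin+ cells, against 1.24, 3.03 and 23.6 CPM in Nanog+E-cadherin- cells. Its blocked log2 fold change was -2.90 ± 0.64 (adjusted p = 0.170 in edgeR's test, 0.00439 in DESeq2's). Tnc, a tenascin of neural stem cell niches, and the matricellular Cyr61 had blocked values of -0.58 ± 0.17 and 0.35 ± 0.15.

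Of 17 tested basement membrane genes, 2 were fitted higher and 1 lower at an unadjusted blocked p under 0.05, against 5.51% and 5.19% of all genes. Col18a1, a basement membrane collagen, had 149, 194 and 257 CPM in Nanog+E-cadherin+ cells, against 96.4, 90.7 and 233 CPM in Nanog+E-cadherin- cells. Its blocked log2 fold change was 0.62 ± 0.19 (adjusted p = 0.290 in edgeR's test, 0.0473 in DESeq2's). Smoc1, a calcium-binding matrix protein, and Ntn1, a laminin-related guidance cue, had -0.59 ± 0.14 and 0.42 ± 0.15. Among 15 tested laminin receptors that are not integrins, 2 were fitted higher and 1 lower against those shares, with the syndecans Sdc1 at 0.34 ± 0.14 and Sdc3 at -0.59 ± 0.18, and Rpsa, a ribosomal protein also described as a laminin receptor, at 0.31 ± 0.12. Replicate number separated 14 of the 38, 10 of the 20, 12 of the 17 and 5 of the 15 genes at an adjusted p under 0.05, against the 22.2% of all genes.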

How the data were processed

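RNA was sequenced from 6 sorted libraries with Illumina TruSeq kits, per the labels. The authors deposited, for each library and gene, an expected count, a TPM and an FPKM (not used here). The expected count divides reads that match several genes or transcripts, so near-identical sequence makes it fractional. The submitters' processing notes name Bowtie, RSEM 1.2.4 and the build mm9, with settings and strand not given in the sources used here. Per the file headers, each gene also has a length in bases.

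Expected counts were rounded and fitted in edgeR 4.0.16 (R 4.3.3) by the quasi-likelihood test with TMM scaling, filterByExpr (minimum count 10, minimum total 15) and Benjamini-Hochberg adjustment over all 13460 genes. The biological coefficient of variation was 0.499 with the group alone and 0.285 with the block. Each edgeR SE is the size of the log2 fold change divided by the square root of its F value. The 95% intervals were built from that SE. DESeq2 1.42.0, other scalings, no filter and left-out libraries were the alternatives. Pair ratios use CPM plus 0.5.

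The labels number the replicates 1 to 3 in each population without saying what a number marks. Deviations from the group means correlated at 0.79, 0.45 and 0.54 between equal numbers and at -0.65 to 0.16 between unequal ones, so equal numbers were treated as pairs. Summed Y-linked expression of 4 genes followed them too (71.1, 1.44 and 69.2 CPM in Nanog+E-cadherin+ libraries, against 60.3, 0 and 160 CPM in Nanog+E-cadherin- libraries). The sex of the cells thus differed between number 2 and the other numbers, and its part in the differences between numbers was not tested.

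Of the 37 members, 1 is counted but not reported singly here, and every other member is named. From each pathway list the genes past the adjusted threshold, or else the 3 of smallest unadjusted blocked p, are named. Members and lists were chosen with earlier results of these data known. A gene at 5 CPM rested on 44.3 to 198.2 counts per library.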

Additional observations from a re-analysis of the deposited data

How the results depend on the processing

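No tested chain passed an adjusted p of 0.05 with the group alone under any scaling, filter or tool tried, or without any 1 library. Of 459 values recomputed for single chains under 18 alternatives, 63 reversed, none of those with an adjusted p under 0.356, and the rest kept their direction. Of the rest 4 passed the threshold: Itga4 and Lama1, each with DESeq2 and the block and in the blocked fit without both libraries numbered 1. With the replicate block, 41 of all genes passed, 3 chains had an unadjusted p under 0.05 and the alpha median was -0.39, while Itga5 became 0.00, Itgb1 0.03 and Lamb2 -0.08. DESeq2 with the group alone called 13 genes and gave 1 chain an unadjusted p under 0.05, and no filter on low counts gave 1 gene, with Itgb1 at 0.01 in both. The count of chains whose libraries do not overlap was 0 with DESeq2 size factors and with DESeq2, each with and without the block, and with no filter. The block combined with DESeq2, with its size factors or with library totals, and leaving out both libraries of highest background, were chosen after seeing the data. DESeq2 with the block called 288 genes, 2 chains and 2 genes of the pathway lists, with 3 chains at an unadjusted p under 0.05, Itgb1 at 0.05 and Lamb2 at -0.06. The block with library totals called 35 genes, with 3 chains at that p, an alpha median of -0.42, Itga5 at -0.04 and Lamb2 at -0.11. The block with DESeq2 size factors called 44 genes, with 3 chains at that p, Itgb1 at 0.04 and Lamb2 at -0.06. Without both Nanog+E-cadherin- libraries of highest background, replicates 2 and 3, Itga4 was 1.81 and Lama1 -0.31, the medians were 0.67 (alpha), 0.69 (beta) and 1.01 (laminin), 13 chains did not overlap (40.9% of all genes) and 1 had an unadjusted p under 0.05. That fit sets 3 libraries against Nanog+E-cadherin- replicate 1 alone, assumed to vary like them, so it mixes population with replicate number.

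Leaving out 1 library, or both libraries of a number with the block (planned with the other alternatives), gave 0 to 449 of all genes past the threshold, the highest without number 3. It gave 0 to 2 chains past it, 0 to 4 genes of the pathway lists, 0 to 8 chains with an unadjusted p under 0.05 and 1 to 6 chains that did not overlap, where 10.9% to 38.4% of all genes did not. The medians ran from -0.54 (without Nanog+E-cadherin+ replicate 3) to 0.11 (without Nanog+E-cadherin- replicate 3) for alpha chains, from -0.16 (without Nanog+E-cadherin- replicate 1) to 0.40 (without Nanog+E-cadherin- replicate 3) for beta chains, and from -0.26 (without Nanog+E-cadherin+ replicate 3) to 0.35 (without Nanog+E-cadherin+ replicate 1) for laminin chains. Among chains that changed sign, the log2 fold change ran from -1.55 to 0.06 for Itga10, -1.33 to 0.34 for Itga11, -2.57 to 1.11 for Itga2, -1.47 to 0.71 for Itga2b, -0.15 to 0.28 for Itga5, -0.47 to 0.14 for Itga6, -0.06 to 2.08 for Itga9 and -0.14 to 0.65 for Itgav. It ran from -0.28 to 0.36 for Itgb1, -0.27 to 0.71 for Itgb3, -0.17 to 0.55 for Itgb4, -0.34 to 0.01 for Itgb5 and -0.84 to 0.66 for Itgb8. Among laminin chains it ran from -0.42 to 1.67 for Lama2, -2.17 to 0.46 for Lama3, -0.51 to 0.14 for Lama4, -0.24 to 0.49 for Lama5, -0.28 to 0.17 for Lamb1, -0.40 to 0.47 for Lamb2, -0.07 to 0.54 for Lamc1 and -2.89 to 0.58 for Lamc3. The cause was not tested. Depth limits the 9 tested chains with under 500 counts in all and the 9 below the filter.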
